A study of Mus musculus with 36 samples.

Results

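The genes described here are 84 of the 24060 gene symbols in RNA counts from the mouse hippocampus. They were taken by name: every symbol that begins with Hdac, Kdm, Kat, Setd, Sirt, Prmt, Dnmt, Tet, Brd or Chd, followed by a number and at most 1 letter. By family these were 18 Kdm, 11 Hdac, 10 Chd, 9 Setd, 8 Prmt, 7 Kat, 7 Sirt, 7 Brd, 4 Dnmt and 3 Tet genes. Names alone do not make all of them histone or DNA modifying enzymes. The Brd proteins read acetylated lysines through bromodomains, the Chd proteins are mostly ATP-dependent nucleosome remodellers, and Sirt3, Sirt4 and Sirt5 encode mainly mitochondrial enzymes. For the same genes, 75 H2A.Z peaks within 1000 bp of a transcription start were found among 12204 such promoter peaks and 20213 peaks in all.

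Histone acetyltransferases (Kat) add acetyl groups to lysines and deacetylases (Hdac and the NAD-dependent sirtuins) remove them. Setd and Prmt proteins methylate lysines and arginines, and Kdm proteins remove lysine methylation. DNA methyltransferases of the Dnmt family methylate cytosine, mainly where a G follows it (CpG), and Tet proteins oxidise that methyl group. Several of these enzymes, among them Hdac2, Dnmt3a, Tet1 and Kdm5c, are well known from work on memory and cognition. H2A.Z is a variant of histone H2A that sits in nucleosomes beside transcription starts and is exchanged by remodelling complexes.

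All mice were C57BL/6J. Young mice were 2.5 months and old mice 15.5 months of age, and at each age there were naive mice and mice that had been fear conditioned with 3 shocks of 0.5 mA in a 5 min session. Hippocampi were taken from brains frozen 30 min after training. Each of the 4 groups (young naive, young conditioned, old naive, old conditioned) has 3 RNA libraries and 3 H2A.Z libraries, and 12 input libraries were not analysed here. No label ties a library to an animal, so p-values describe the spread between libraries, which may be technical in part. In this bulk tissue, fewer cells of a type and less RNA per cell cannot be told apart.

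RNA libraries held 9410843 to 13350561 counts, of which the 84 genes took 0.670% to 0.726%. Markers of excitatory hippocampal neurons had a mean log2 CPM (CPM is the read count divided by the scaled size of its library) of 7.22 to 7.47 over the 12 libraries. The 20 early activity genes used as a reference for training, among them Fos and Arc, all had a positive difference after conditioning at both ages (median log2 difference 0.80 in young and 0.83 in old mice, 8 of 20 passing the adjusted p over both ages). Markers of the choroid plexus, a neighbouring tissue, varied most: their mean log2 CPM ran from 0.99 in young conditioned library 77 to 5.46 in young naive library 81, with the old conditioned libraries between 1.05 and 2.04. The mean of 7 nuclear-retained RNAs was lowest in old conditioned library 61 (8.59) and highest in young naive library 79 (9.79). The mean log2 CPM of the 83 tested members had the same lowest and highest library, 5.54 in library 61 and 5.69 in library 79. Library 79 held the highest value of 26 members, and library 61 held the lowest value of 19 and the highest of 14.

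Within groups the median coefficient of variation of the 83 tested members was 7.69%, against 9.84% over all 14405 tested genes, at a median level of 57.7 and 23.3 CPM. Among the tested members the ratio of the highest to the lowest of the 12 libraries was largest in Dnmt3b (3.87) and Kdm4d (2.64, mean 1.85 CPM). Setd4 (2.40) and Kdm5d (2.02) followed. Dnmt3l, a catalytically inactive partner of the de novo methyltransferases, was near absent, with 0 to 7 counts per library, and did not pass the filter on low counts. Dnmt3b, a de novo methyltransferase, was detected between 0.302 and 1.17 CPM, too low for a small difference to be seen. CPM values are not divided by transcript length, so levels are compared between libraries and not between genes. The standard error of a difference between 2 groups had a median of 0.09 log2 units among the members.

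Age was the comparison in which the members came closest to a call. Averaged over naive and conditioned mice, 0 of 83 members passed an adjusted p of 0.05 (edgeR quasi-likelihood test, Benjamini-Hochberg over all tested genes), where 0.375% of all genes did. DESeq2 called 3, Tet1, Dnmt3a and Kdm5a, all lower, where it called 107 genes higher and 121 lower of 19520. Without young naive library 81 edgeR called 4 members, where it called 132 genes higher and 259 lower of 14547. In each of the other 6 RNA comparisons both tools called 0 members. At an unadjusted p under 0.05, 13 members were lower and 1 was higher in old mice, which is 15.7% and 1.2% of the members. Over all genes these shares were 9.27% lower and 7.33% higher. The median log2 difference of the members was -0.05, against -0.0033 over all genes, and 55 of 83 were below 0.

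The DNA methylation cycle supplied a pair of the 4 members nearest to the threshold. Tet1, which oxidises methylated cytosine, stood at 36.8, 31.9 and 33.3 CPM in young naive, 28.1, 30.2 and 33.8 in young conditioned, 29.0, 26.0 and 25.5 in old naive and 22.8, 26.0 and 27.7 in old conditioned libraries. Old libraries lay below young ones apart from old naive library 67, which passed young conditioned library 73. The 6 old libraries averaged 26.2 ± 2.10 CPM and the 6 young ones 32.3 ± 3.04 CPM (SD; log2 difference -0.30, SE 0.07, edgeR adjusted p = 0.0753). Dnmt3a, the main de novo methyltransferase of neurons, stood at 113, 99.3 and 100.2 CPM in young naive, 89.3, 98.5 and 98.3 in young conditioned, 80.8, 84.5 and 96.7 in old naive and 80.5, 87.7 and 84.5 in old conditioned libraries. Here old naive library 71 lay above young conditioned library 73, and the other 5 old libraries lay below all young ones. The log2 difference was -0.22 (SE 0.06, edgeR adjusted p = 0.0906). Tet2 ran from 51.7 to 69.8 CPM and Tet3 from 95.4 to 119.9 CPM over the 12 libraries, with old and young values overlapping. The maintenance enzyme Dnmt1 ran from 48.7 to 63.3 CPM, again with overlap.

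Among deacetylases the lowest adjusted p belonged to a mitochondrial member. Sirt4, a sirtuin of the mitochondrial matrix, stood at 13.1, 10.003 and 12.4 CPM in young naive, 10.5, 9.50 and 11.8 in young conditioned, 8.83, 9.26 and 8.16 in old naive and 7.69, 8.48 and 8.79 in old conditioned libraries. All 6 old libraries lay below all 6 young ones (log2 difference -0.39, SE 0.10, edgeR adjusted p = 0.0854). Hdac5, a class II deacetylase that shuttles between nucleus and cytoplasm, was the 1 member higher at an unadjusted p under 0.05. It stood at 144, 172 and 139 CPM in young naive, 143, 143 and 140.0 in young conditioned, 159, 166 and 144 in old naive and 185, 166 and 153 in old conditioned libraries. Old conditioned libraries were above all young conditioned ones, while naive libraries of the 2 ages overlapped (log2 difference 0.14, SE 0.06, edgeR adjusted p = 0.245). With the nuclear RNA score as a covariate the Hdac5 difference was 0.029 (edgeR adjusted p = 0.858), and over the settings run it lay between 0.029 and 0.19. Of the other class I and II genes, Hdac1 ran from 25.6 to 30.6 CPM, Hdac3 from 47.8 to 56.8 CPM, Hdac4 from 54.2 to 80.0 CPM and Hdac9 from 59.8 to 78.4 CPM. Sirt1, the nuclear sirtuin most studied in ageing, ran from 12.6 to 20.8 CPM, and both of its extremes were old libraries.

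Demethylases gave the second gene whose ages did not overlap. Kdm5a, an eraser of H3K4me3, stood at 107, 103 and 103 CPM in young naive, 101, 98.6 and 103 in young conditioned, 93.1, 93.8 and 90.6 in old naive and 79.9, 85.7 and 97.7 in old conditioned libraries (log2 difference -0.19, SE 0.05, edgeR adjusted p = 0.0963). Non-overlap of all 12 libraries in this direction was seen in 2 members, Sirt4 and Kdm5a, and in 0.569% of all genes. Its X-linked relative Kdm5c, mutated in a form of intellectual disability, stood at 119, 119 and 105 CPM in young naive, 109.8, 99.8 and 107 in young conditioned, 104, 97.0 and 97.6 in old naive and 101, 102 and 104 in old conditioned libraries. Old and young Kdm5c values did not overlap in naive mice and overlapped in conditioned mice (log2 difference over both conditions -0.12, SE 0.05, edgeR adjusted p = 0.211). Kdm5d, the Y-linked relative, was expressed in every library, at 19.7 to 39.8 CPM, with its lowest value in library 61 (log2 difference -0.32, SE 0.10, edgeR adjusted p = 0.151). As a family, 16 of the 18 Kdm genes had a difference below 0, with a median of -0.10, where 7363 of all 14405 genes did. At an unadjusted p under 0.05, 4 of the 18 were lower, against 9.27% of all genes.

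**Figure D1:**
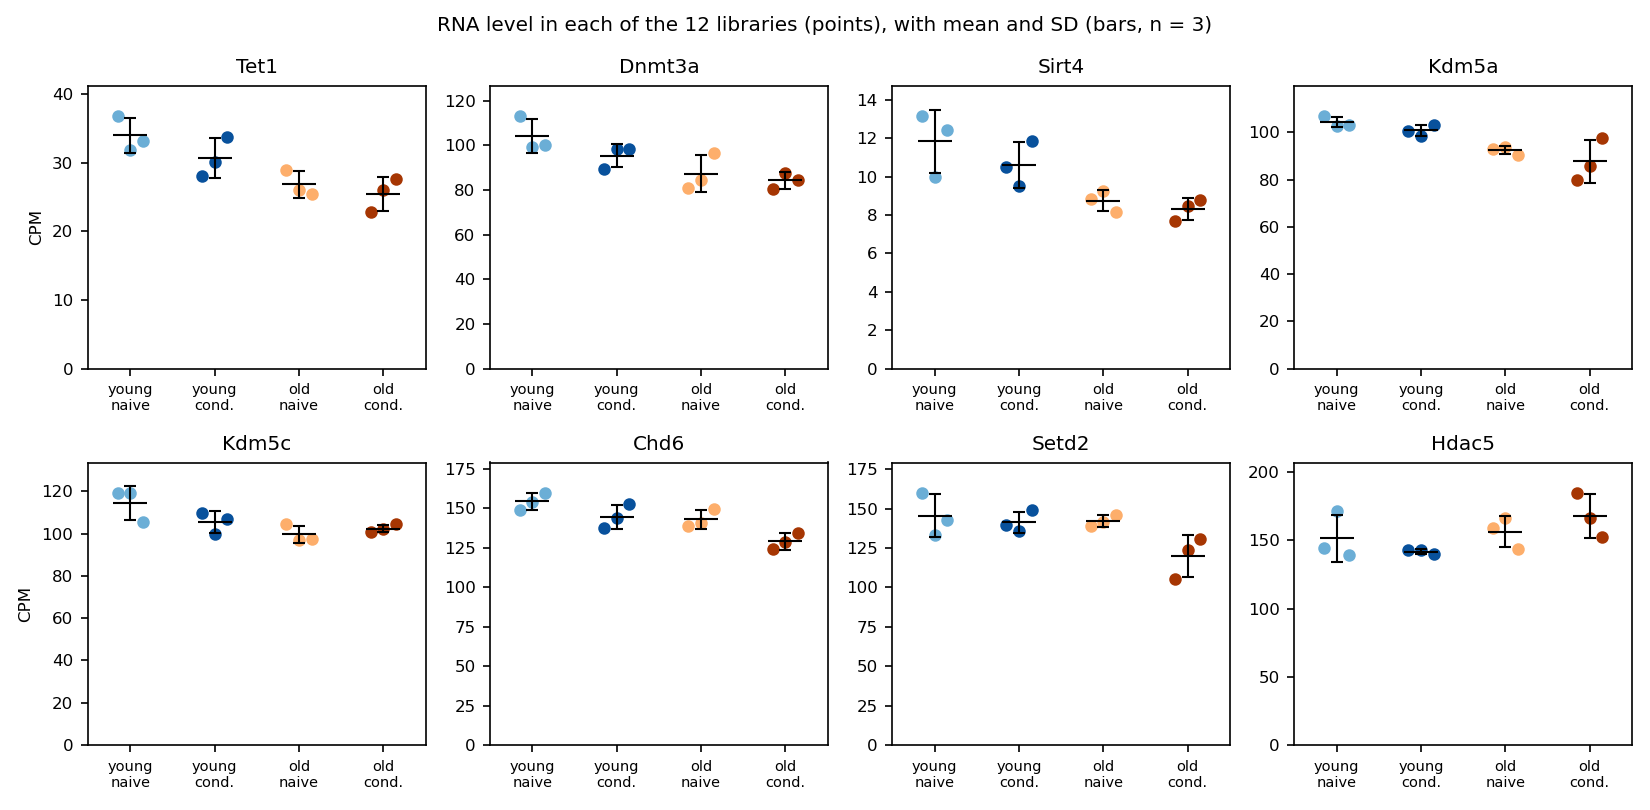
RNA level in CPM (y axis, from 0) of 8 members in each of the 12 libraries, by group (x axis), with bars for the mean and SD of 3 libraries. Sirt4 and Kdm5a show no overlap between the 6 young and 6 old libraries, Tet1 and Dnmt3a a small one, and Hdac5 is higher in old conditioned than in young conditioned libraries.

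Of the 10 Chd remodellers, 7 had an age difference below 0. Chd6, Chd1, Chd2 and Chd8 were lower at an unadjusted p under 0.05, 4 of 10 in the family against 9.27% of all genes, with log2 differences of -0.14, -0.18, -0.18 and -0.09 (edgeR adjusted p of 0.141, 0.19, 0.198 and 0.215). Chd8, a gene often mutated in autism, stood at 172, 179 and 171 CPM in young naive, 164, 168 and 174 in young conditioned, 167, 167 and 173 in old naive and 152, 149.8 and 156 in old conditioned libraries. Its old conditioned libraries were the 3 lowest of all. Of 9 Setd genes, Setd2, a methyltransferase that acts along transcribed genes, and Setd4 were lower at that level (log2 differences -0.13 and -0.33, edgeR adjusted p of 0.256 and 0.263). In the Kat, Prmt and Brd families 0 members passed an unadjusted p of 0.05 in either direction. The Kat and Prmt medians were 0.06 and 0.05, with 5 of 7 Kat and 6 of 8 Prmt genes above 0, so these differed in sign from the Kdm, Chd and Tet medians of -0.10, -0.07 and -0.13. Other members described whatever their values overlapped between the ages: the acetyltransferases Kat2a (50.7 to 63.7 CPM) and Kat5 (34.7 to 40.1 CPM), the demethylases Kdm1a (67.6 to 77.8 CPM) and Kdm6b (45.1 to 58.6 CPM), Setd1a, a writer of H3K4me3 (59.9 to 68.7 CPM), the cytoplasmic sirtuin Sirt2 (73.2 to 89.8 CPM), the main arginine methyltransferase Prmt1 (39.4 to 53.8 CPM), and Chd7, mutated in CHARGE syndrome (28.9 to 37.1 CPM). Sign and size of family medians are descriptions, and no difference between families was tested.

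**Figure D2:**
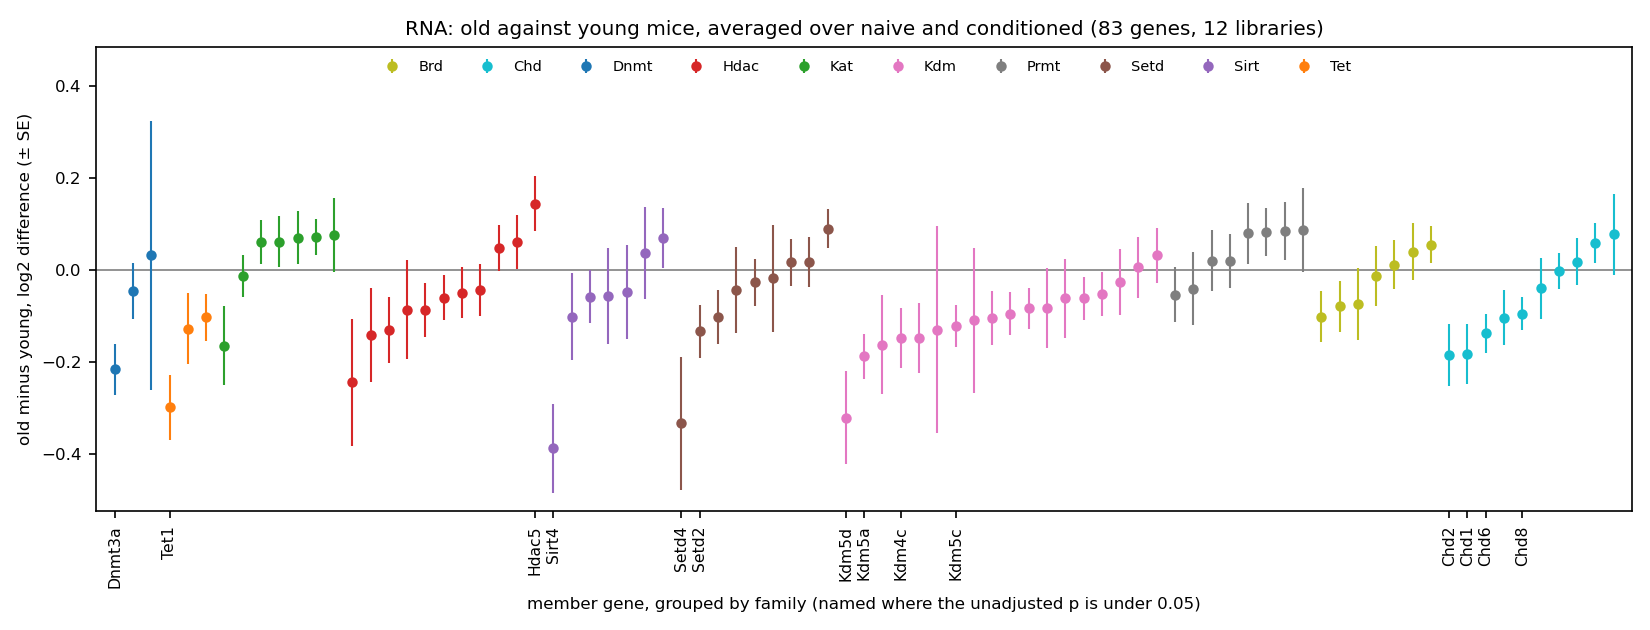
Log2 difference between old and young mice (y axis), averaged over naive and conditioned groups, for the 83 tested members ordered by family (x axis) and named where the unadjusted p was under 0.05. Points are estimates of the edgeR fit and bars are 1 standard error. 55 of 83 points are below 0, and Sirt4, Setd4, Kdm5d and Tet1 are the lowest.

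Measured cell markers and RNA classes differed with age beside these genes. All 12 microglial markers had a positive age difference (median 0.30 log2, 4 passing the adjusted p), all 16 choroid plexus markers a negative one (median -1.87), and 6 of 7 nuclear-retained RNAs a negative one (median -0.43). Positive differences were also found in 11 of 12 excitatory neuron markers (median 0.12, 4 at an unadjusted p under 0.05), 8 of 10 endothelial markers (median 0.23, 5) and 7 of 8 interneuron markers (median 0.12, 2). Of 10 astrocyte markers 9 had a positive difference (median 0.06, 3), and 1 passed the adjusted p. Negative differences were found in 11 of 12 oligodendrocyte markers (median -0.16, 3) and 9 of 9 ependymal markers (median -0.49, 2). With the nuclear RNA score as a covariate, 8 members were lower at an unadjusted p under 0.05 in place of 13, the median became -0.02, and the smallest edgeR adjusted p was 0.204. With the choroid plexus score as a covariate, 25 members were lower and 3 passed. The members lower at that level numbered 21 without young naive library 81 and 20 without old naive library 71. Counts over all genes moved too. Those passing an adjusted p were 21 higher and 33 lower in the main fit and 13 and 20 with the nuclear RNA score. With the choroid plexus score they were 50 and 199, without library 81 132 and 259, and without library 71 18 and 38. What part the marker differences have in the result was not tested.

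Within naive mice, 7 members were lower and 2 higher in old animals at an unadjusted p under 0.05, against 5.28% lower and 5.0% higher of all genes, and 0 members passed an adjusted p (all genes 0.0555%). Lower were Tet1, Dnmt3a, Sirt4, Kdm5c, Kdm3a, Kdm5a and Hdac4, by 0.17 to 0.43 log2 units, all with edgeR adjusted p from 0.303 to 0.435. Higher were Prmt8, a brain-enriched arginine methyltransferase bound to the plasma membrane, and Setd3, which methylates actin (log2 differences 0.18 and 0.13, edgeR adjusted p of 0.411 and 0.466). Prmt8 stood at 63.7, 63.8 and 62.9 CPM in young naive and at 71.5, 65.1 and 79.4 CPM in old naive libraries, with no overlap. Without young naive library 81, 13 members were lower in place of 7, and without old naive library 71 or young naive library 83, 0 were higher in place of 2. Without old naive library 69 the member median was -0.03 in place of -0.06.

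Within conditioned mice, 11 members were lower and 1, Hdac5, was higher at an unadjusted p under 0.05, against 7.14% lower and 6.23% higher of all genes. Again 0 members passed (all genes 0.0347%). Non-overlap with old libraries lower was counted in 21 of 83 members and in 11.8% of all genes. Leading were Chd1, a remodeller that binds H3K4me3, with a log2 difference of -0.29 (edgeR adjusted p = 0.239), and Kdm5d with -0.44 (edgeR adjusted p = 0.244). Without library 61, the lowest in Kdm5d, its difference was -0.26 (edgeR adjusted p = 0.757). Without old conditioned library 61, the library with the lowest nuclear RNA score, 4 members were lower in place of 11, and likewise 4 without young conditioned library 77. Naive and conditioned age comparisons share no library, and Tet1, Dnmt3a, Sirt4 and Kdm5a were lower at an unadjusted p under 0.05 in both, 4 of 83 members against 1.16% of all genes.

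Training in young mice was tested as conditioned minus naive. Of the members, 0 passed an adjusted p (all genes 0.0278%), and at an unadjusted p under 0.05 1 was higher and 0 were lower, against 3.45% and 3.18% of all genes. The 1 gene was Hdac2, a class I deacetylase of neurons, at 74.1, 67.7 and 70.6 CPM in naive and 81.9, 78.6 and 75.4 CPM in conditioned libraries. Its groups did not overlap (log2 difference 0.15, SE 0.07, edgeR adjusted p = 0.734). The median of the members was -0.03. The widest difference, -0.51, was that of the scarce Dnmt3b. These counts turned on single libraries: without young naive library 81, 0 members were higher and 5 lower, and without young naive library 79, 3 were higher and 1 lower.

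In old mice 5 members were lower after training at an unadjusted p under 0.05 and 0 were higher, against 3.69% lower and 3.47% higher of all genes, and 0 passed (all genes 0.0139%). Setd2 stood at 139, 142 and 146 CPM in naive and 105, 123 and 131 CPM in conditioned libraries, with no overlap (log2 difference -0.25, SE 0.08, edgeR adjusted p = 0.695). Kat6a, a histone H3 acetyltransferase of the MYST family, stood at 137, 140.2 and 153 CPM in naive and 131, 126 and 126 CPM in conditioned libraries (log2 difference -0.17, edgeR adjusted p = 0.695). Its paralogue Kat6b (-0.15) and the remodellers Chd6 (-0.15) and Chd8 (-0.14) had the same edgeR adjusted p of 0.695. Library 61 was the lowest for Setd2, and without it 2 members were lower in place of 5. Without old conditioned library 63 there were 2, without old naive library 71 there were 3, without old naive library 67 there were 8, and with the choroid plexus score as a covariate 10. All 16 choroid plexus markers were lower in old conditioned than in old naive libraries (median -2.71 log2), and what part this has in the 5 differences was not tested.

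Averaged over both ages, 7 members were lower and 0 higher after training at an unadjusted p under 0.05, against 4.17% lower and 2.82% higher of all genes, and 0 passed (all genes 0.0764%). They were Chd6, Kat6b, Chd8, Kat6a, Setd2, Kat2b and Chd9, with log2 differences from -0.09 to -0.20, and the smallest edgeR adjusted p was 0.711. Kat6b stood at 115, 124 and 123 CPM in young naive and 110.3, 112 and 113 CPM in young conditioned libraries, without overlap, and at 115, 128 and 140.3 CPM in old naive and 118, 115 and 113 CPM in old conditioned ones, with overlap. Without young conditioned library 73, 3 members were lower in place of 7, and 4 without old naive library 71 or young naive library 79, which left 1 and 3 members higher. Markers of other cells were lower too: 16 of 16 of the choroid plexus (median -1.56, 14 at an unadjusted p under 0.05), 12 of 12 of oligodendrocytes (median -0.22, 6) and 9 of 9 of the ependyma (median -0.61, 3) had a difference below 0. Their part in the members' differences was not tested.

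Training effects were not shown to differ between the ages. The difference between the 2 training effects (old less young, an interaction term) gave 0 members at an adjusted p of 0.05 (all genes 0.0%). At an unadjusted p under 0.05 it gave 2 higher and 0 lower, against 3.6% of all genes in each direction. Without young naive library 79, 0 were higher and 4 lower, and without young conditioned library 73, 0 and 1, so the direction rests on these libraries. Kdm3a, a histone H3 demethylase, had values of 54.2, 50.5 and 47.4 CPM in young naive, 45.8, 43.1 and 48.8 in young conditioned, 45.4, 40.4 and 43.3 in old naive and 43.4, 50.1 and 46.5 in old conditioned libraries (interaction 0.26 log2, SE 0.12, edgeR adjusted p = 0.689). Chd5, a neuronal remodeller, had an interaction of 0.22 (SE 0.10, edgeR adjusted p = 0.691), and in it old conditioned library 61 was the highest of all at 392 CPM.

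**Figure D3:**
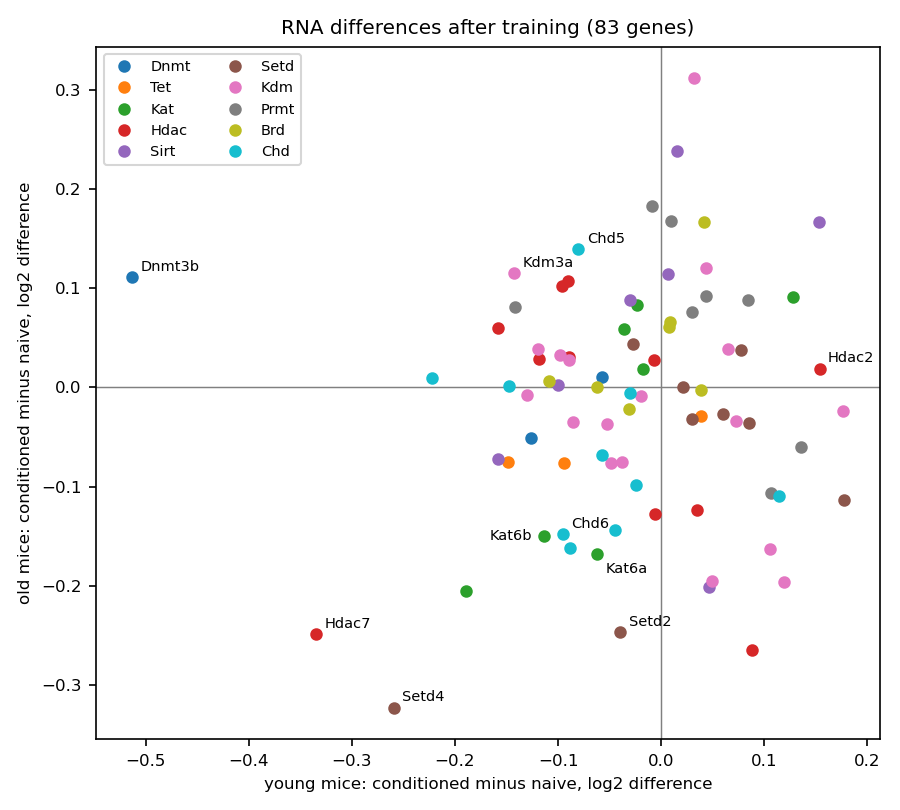
Log2 RNA difference between conditioned and naive mice in young (x axis) and old mice (y axis) for the 83 tested members, coloured by family. Most points lie within 0.2 of 0 on both axes, Setd2, Kat6a, Kat6b and Chd6 lie below 0 in both, and the outlying Dnmt3b is the scarcest of the tested members.

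Genes of the same pathways outside these families were counted in the same fit. Other lysine and arginine methyltransferases numbered 26, other acetyltransferases 11, other demethylases 7, corepressor subunits 21, readers and repair genes of DNA methylation 16, other remodellers 26 and other bromodomain readers 15. In each of these 7 lists 0 genes passed an adjusted p of 0.05 for training over both ages or for age over both conditions. For age, 4 of 26 other methyltransferases were lower and 3 higher at an unadjusted p under 0.05, 3 of 7 other demethylases, 4 of 26 other remodellers and 4 of 15 other bromodomain readers were lower, 1 of 21 corepressor subunits and 1 of 16 genes of DNA methylation reading and repair were lower, and 0 of 11 other acetyltransferases were either. Over all genes 9.27% were lower and 7.33% higher. Medians ran from -0.11 in the bromodomain readers to 0.01 in the corepressor subunits.

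H2A.Z was described from the authors' deposited table, which holds 1 fold, p and FDR per peak and contrast and no value per library, so no error between libraries can be given. A promoter peak was present for 68 of the 84 genes, 6 of them with more than 1. No promoter peak was listed for Brd8, Brd9, Chd2, Chd8, Dnmt3l, Hdac3, Hdac4, Hdac8, Hdac9, Kdm5d, Kdm6b, Prmt7, Sirt2, Sirt4, Sirt5 and Tet1, so of the 4 genes nearest to a call with age Tet1 and Sirt4 have no H2A.Z value here. Another 59 peaks had a member as the nearest gene at more than 1000 bp. Of the 75 promoter peaks, 70 overlapped H3K4me3 regions in the authors' annotation, 62 H3K27ac and 10 H3K27me3. Over all 12204 promoter peaks these counts were 11447, 8147 and 4249.

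The promoters of 6 members are shown to let their sequence be read beside the H2A.Z folds: the 3 members with the largest loss of H2A.Z in young mice (Kdm4d, Kdm4a, Sirt6), and Dnmt3a, Prmt8 and Tet2, whose folds in young mice were near or above 0. They were picked after the values were seen and do not stand for all such peaks: Kat7 and Kdm5b, with folds of 0.08 and 0.01 in young mice, have 8 and 13 CpG, and a second Prmt8 peak has a fold of -1.14. Each is the 250 bases before the transcription start, 5′ to 3′ on the gene's strand, from RefSeq on GRCm38.p6 (mm10), with CpG in capitals. A window need not overlap the peak of its gene, and the Kdm4d peak lies wholly outside its window, past the transcription start. Kdm4d lies at chr9:14500483-14500732 on the minus strand, Kdm4a at chr4:118180044-118180293 (minus), Sirt6 at chr10:81627567-81627816 (minus), Dnmt3a at chr12:3806910-3807159 (plus), Prmt8 at chr6:127769160-127769409 (minus) and Tet2 at chr3:133544391-133544640 (minus).
Kdm4d: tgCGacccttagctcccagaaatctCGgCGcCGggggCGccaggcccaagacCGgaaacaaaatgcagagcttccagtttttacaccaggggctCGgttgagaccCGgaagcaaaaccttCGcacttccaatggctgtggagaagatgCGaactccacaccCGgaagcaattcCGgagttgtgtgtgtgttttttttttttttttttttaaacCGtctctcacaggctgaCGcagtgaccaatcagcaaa
Kdm4a: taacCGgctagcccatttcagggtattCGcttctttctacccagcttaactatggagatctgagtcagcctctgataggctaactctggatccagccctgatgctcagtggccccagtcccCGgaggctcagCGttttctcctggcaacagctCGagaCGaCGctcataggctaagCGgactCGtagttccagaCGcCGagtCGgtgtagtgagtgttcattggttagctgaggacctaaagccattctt
Sirt6: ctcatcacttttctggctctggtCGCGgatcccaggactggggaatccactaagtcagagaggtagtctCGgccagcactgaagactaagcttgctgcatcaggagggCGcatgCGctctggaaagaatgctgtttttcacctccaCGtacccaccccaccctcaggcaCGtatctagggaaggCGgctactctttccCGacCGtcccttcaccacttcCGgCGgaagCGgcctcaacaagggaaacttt
Dnmt3a: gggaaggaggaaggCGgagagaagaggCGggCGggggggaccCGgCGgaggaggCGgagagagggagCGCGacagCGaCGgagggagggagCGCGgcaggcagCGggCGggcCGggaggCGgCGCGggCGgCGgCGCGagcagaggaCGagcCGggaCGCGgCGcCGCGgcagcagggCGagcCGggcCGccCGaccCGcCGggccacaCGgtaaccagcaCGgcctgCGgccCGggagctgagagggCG
Prmt8: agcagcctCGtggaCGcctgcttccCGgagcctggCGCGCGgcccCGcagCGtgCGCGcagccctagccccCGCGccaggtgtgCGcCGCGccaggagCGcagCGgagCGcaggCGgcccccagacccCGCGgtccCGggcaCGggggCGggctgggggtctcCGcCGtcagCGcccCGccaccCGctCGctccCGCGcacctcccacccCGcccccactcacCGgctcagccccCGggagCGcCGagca
Tet2: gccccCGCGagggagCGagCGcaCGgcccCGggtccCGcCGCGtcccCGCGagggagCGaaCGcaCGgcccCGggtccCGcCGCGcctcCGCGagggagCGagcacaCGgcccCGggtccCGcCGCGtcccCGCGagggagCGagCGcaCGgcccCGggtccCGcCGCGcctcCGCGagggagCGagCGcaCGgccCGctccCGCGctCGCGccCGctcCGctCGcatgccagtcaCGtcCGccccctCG
Kdm4d, Kdm4a and Sirt6 hold 14, 12 and 13 CpG in these windows, Dnmt3a 40, Prmt8 37 and Tet2 51. Among the 32817 promoters of that table, 70.7%, 66.5% and 68.5% have fewer CpG than the first 3, and 98.7%, 97.8% and 99.9% fewer than the last 3. The median was 6 CpG over those promoters, with or without an H2A.Z peak, and 18 over the promoters of 55 members with a peak. Over the promoters of 9091 genes with a promoter peak and a window it was 17, near that of the members. The first 3 lie below the member median. The letters GGGCGG (the GC box, either strand) occur in the Dnmt3a, Prmt8 and Tet2 windows. They occur in 65.5% of 58 promoters of member peaks and in 32.7% of all promoters. CCAAT (either strand) occurs in Kdm4d and Kdm4a, in 44.8% of those 58 and in 33.8% of all promoters. TGACG, a part of the cAMP response element, occurs in Kdm4d and Prmt8. On either strand it is in 32.8% of the 58 and in 17.7% of all promoters. CACGTG, the E-box, occurs in 0 of the 6 windows, in 10.3% of the 58 and in 6.02% of all promoters. The shares of all promoters include promoters without an H2A.Z peak. Shares among the promoters of other peaks were not counted, so these values do not set the members apart from them. A match of letters does not show that a factor binds there.

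A RefSeq window within 1000 bp was found for 55 of the 68 genes, 2 of them by an older symbol, and for 60 of the 75 peaks. Across those 60 peaks the Spearman correlation between CpG count and the training fold was 0.36 in young and 0.17 in old mice. With the age fold it was 0.45 in naive and 0.04 in conditioned mice. Between the training fold and the mean deposited level of the 4 groups it was 0.48 in young and 0.08 in old mice, across 75 peaks. Over all 12204 promoter peaks those 2 values were 0.41 and 0.13. The mean level includes the groups compared in the fold. Peaks share libraries and base composition, so these are descriptions. Over all promoter peaks 77.8% had a window, under the 80% needed, so the CpG check over all peaks is void. The median of 17 CpG given above covers only the genes with a window.

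After training, H2A.Z was lower at 8 of the 75 member peaks in young mice at FDR 0.05, which is 10.7%, and higher at 0. Over all promoter peaks 14.5% were lower, so the share among members was no higher than the background. The median log2 fold of member peaks was -0.52, against -0.63 over all promoter peaks, with 88% and 91.8% below 0. Kdm4d, a histone H3 demethylase, had the largest fall: -3.39 at the peak chr9:14499940-14500425 (authors' deposited table, FDR = 7.91e-06). Its relative Kdm4a fell by 3.26 on the log2 scale at chr4:118179363-118180423 (authors' deposited FDR = 0.0101). Both peaks were called in 3 of 3 young naive and 0 of 3 young conditioned libraries. Sirt6, a chromatin-bound deacetylase, fell by 2.01 (authors' deposited FDR = 0.0197) and was called in 3 and 1 libraries. Smaller falls past the threshold in the authors' deposited table were found at Sirt3 (-1.64), Setd8 (-1.40), a histone H4 methyltransferase, Kat8 (-1.28), a histone H4 acetyltransferase, Kdm5a (-1.17) and Chd9 (-1.11).

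In old mice 13 member peaks were lower at FDR 0.05, 17.3% of 75, against 15.9% of all promoter peaks, and 0 were higher. By the authors' scaling these folds lie 0.215 above the difference of the deposited group levels, which is not so in young mice. All 75 member peaks had a fold below 0, as did 98.3% of all promoter peaks, and the medians were -0.90 and -1.03. Falls past the threshold lay in a narrow range in the authors' deposited table, from -0.87 to -1.34. The writers, erasers and readers among them were Kdm1b (-1.34) and Kdm1a (-1.17), both flavin-dependent demethylases, Kdm2b (-1.17), Kdm4c (-1.12), Kdm2a (-0.90) and Kdm7a (-0.87), the deacetylase Hdac2 (-1.03), Tet2 (-1.05), Dnmt3b (-1.20), the bromodomain genes Brd7 (-1.34) and Brd3 (-1.12), and the remodellers Chd7 (-1.20) and Chd1 (-1.13). The authors' deposited FDR of these peaks ran from 0.00482 at Chd7 to 0.04998 at Kdm2a. Larger folds at that age, such as -2.15 at Kdm4a and -2.10 at Hdac10, did not pass.

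Called member peaks of the 2 ages were different ones: 0 of the 8 young and 0 of the 13 old calls were shared. Over all promoter peaks 133 were shared, 7.48% of the young and 6.86% of the old calls. That a peak passed at 1 age and not at the other does not show that the folds differ, and the table allows no test of the difference. Side by side, Kdm4d had -3.39 in young and -1.33 in old mice, Sirt6 -2.01 and -1.20, Chd7 -0.40 and -1.20, Tet2 -0.03 and -1.05, and Kdm1a -0.02 and -1.17. The young and old contrasts share no library, and across the 75 peaks their folds had a Spearman correlation of 0.55 (0.52 over all promoter peaks), as a description.

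**Figure D4:**
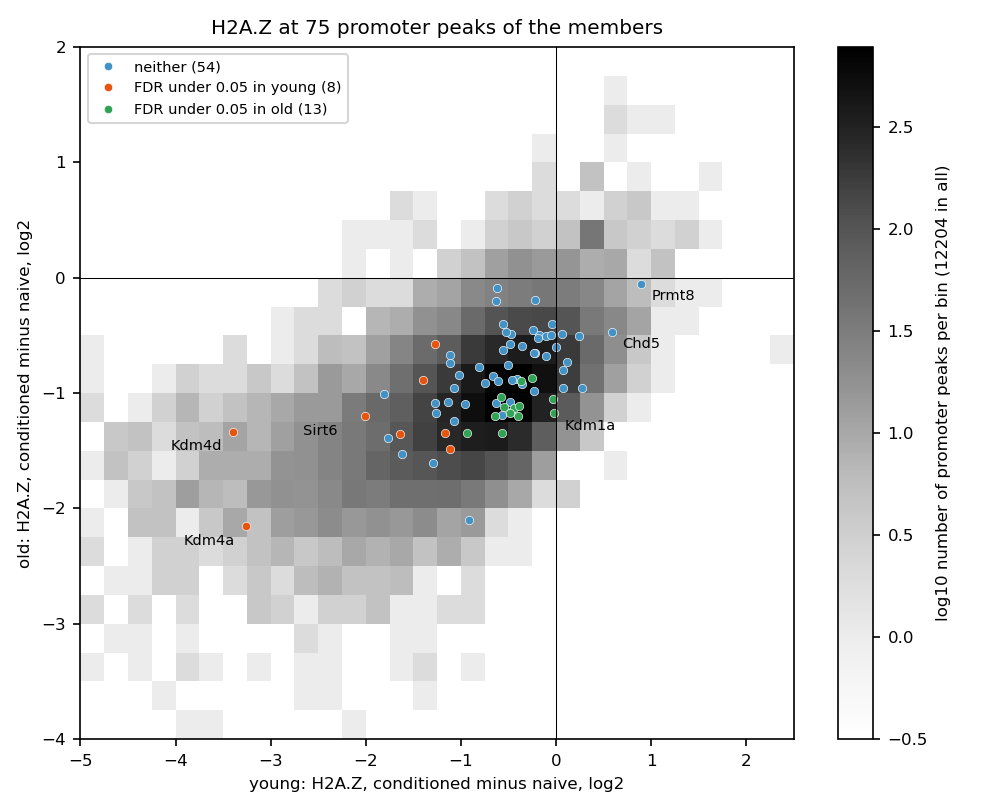
Deposited log2 fold of H2A.Z between conditioned and naive mice in young (x axis) and old mice (y axis). Coloured points are the 75 member promoter peaks by FDR, and grey bins count all 12204 promoter peaks on a log10 scale (axes cut to the range shown). No member peak passes at both ages, and all 75 lie below 0 on the y axis.

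How often a peak was called in the young naive libraries moved with these calls. Among the 48 member peaks called in all 3 young naive libraries, 8 passed in young and 6 in old mice. Among the 22 called in 2 of them, 0 passed in young and 7 in old mice, with medians of -0.14 and -0.85. Over all promoter peaks with 2 young naive calls, 7.82% passed in young and 20.6% in old mice, against 18.3% and 15.3% of those with 3. Young naive libraries are also the baseline of the young fold, so the split and that fold are not independent. The table does not say which library lacks a call, and its part in the young folds was not tested.

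A few member peaks had a young fold above 0, none of them past the threshold (9 of 75). The highest was 1 of the Prmt8 peaks at 0.89 (authors' deposited FDR = 0.435), called in 0 young naive and 2 young conditioned libraries, while the second Prmt8 peak had -1.14. Next were Chd5 at 0.58, Kdm4b at 0.28 and Dnmt3a at 0.24. Prmt8, Chd5 and Dnmt3a peaks overlapped H3K27me3, the polycomb mark. Of the 10 member peaks with that mark 3 were above 0 in young mice and 0 passed there, and 3 passed in old mice. Over all 4249 promoter peaks with that mark, 8.1% passed in young and 15.5% in old mice.

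Between the ages 0 member peaks passed in naive mice (all promoter peaks 0.0% lower) and 0 in conditioned mice (0.0% lower). In naive mice 69 of 75 member peaks had a higher fold in old animals, median 0.61 against 0.44 over all promoter peaks, and the smallest FDR in the authors' deposited table was 0.224. At a deposited unadjusted p under 0.05, 28 of the 75 were higher in old naive mice (37.3%), against 17.2% of all promoter peaks. By p, Dnmt3a stood first of these at 1.31, followed by Tet2 at 1.13, Kdm2b at 1.15, Chd1 at 1.02 and Chd5 at 1.38, and the largest fold of the members was 1.62 at the higher Prmt8 peak. The 22 member peaks called in 2 of 3 young naive libraries had a median of 0.98 and the 48 called in all 3 a median of 0.37. Over all promoter peaks these medians were 0.70 and 0.37. Young naive libraries are also the baseline of this fold, so the split and the fold are not independent. What part the number of calls has in the age folds was not tested. In conditioned mice the medians were 0.32 and 0.10, the largest fold was 1.88 at Kdm4d, and 1 member peak, at Brd1, was higher at a deposited unadjusted p under 0.05 (1.33%, against 0.402% of all promoter peaks). The age contrasts share their libraries with the training contrasts, and the zero of the folds depends on the authors' scaling. In the authors' deposited table the fold differs from the difference of the group levels by a constant in 3 contrasts: -0.334 for age in naive mice, -0.118 for age in conditioned mice and 0.215 for training in old mice, against 0 for training in young mice.

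**Figure D5:**
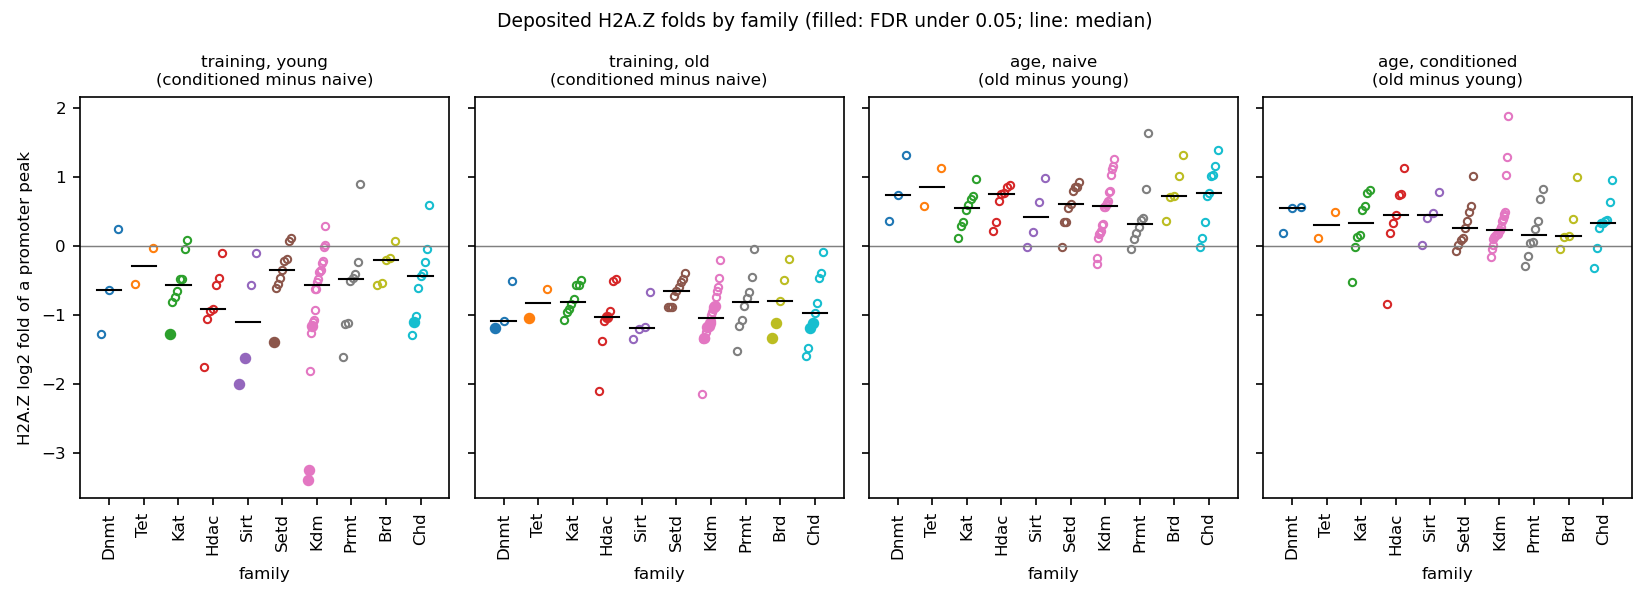
Deposited log2 H2A.Z fold of each member promoter peak (y axis) by family (x axis) in the 4 contrasts. Filled points have an FDR under 0.05 and lines are family medians. Folds are mostly below 0 for training and above 0 for age, and no point is filled for age.

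Neighbouring genes limit what a promoter peak can be assigned to. For 15 of the 68 genes another gene starts on the opposite strand within 1000 bp, among them Cwc15 beside Kdm4d, Ankrd24 beside Sirt6, Psmd13 beside Sirt3, Ccdc77 beside Kdm5a and Tpmt beside Kdm1b. A peak at such a pair may belong to either promoter or to both, and its distance to the other start was not measured.

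RNA and promoter H2A.Z of the members were set side by side with the strongest peak of each gene. Of the 8 genes with a called H2A.Z loss in young mice, 3 had an RNA difference below 0, with a median of 0.04, against -0.03 for the members without a call. Of the 13 called in old mice 8 were below 0, with a median of -0.01 against 0.01. Over all genes with a called H2A.Z peak, 826 of 1558 in young and 974 of 1885 in old mice had an RNA difference below 0. Across 68 genes the Spearman correlation between H2A.Z fold and RNA difference was 0.02 for the young and -0.17 for the old training contrast, and -0.08 and 0.33 for the age contrasts of naive and of conditioned mice. Over all 10817 genes with both values it was 0.02, 0.03, 0.07 and 0.07 in the same order. Genes are not independent replicates, so these carry no p. Kdm4d, with the largest H2A.Z loss in young mice, stood at 1.59, 1.91 and 1.90 CPM in young naive and 2.26, 1.67 and 2.23 CPM in young conditioned libraries, with overlap.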

How the data were processed

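RNA was measured in 12 libraries and H2A.Z in 12, in 4 groups of 3 set by the labels. The deposited RNA values are whole read counts per gene symbol, and the submitters' processing notes name Trim Galore 0.4, TopHat and HTSeq 0.6.1p2. Neither annotation nor strand use is stated there, so reads of overlapping or antisense genes cannot be told apart. For H2A.Z, the deposited log2 folds, p-values and FDR come from the authors' table of consensus peaks, and the submitters' processing notes name Bowtie2 2.2.1, MACS2 2.0.10, DiffBind 1.12.2 and edgeR 3.8.6. Builds named there are mm9 and mm10, and the peak coordinates printed are mm10. The T in its column names was read as conditioned by exclusion, and folds were turned to conditioned less naive and old less young.

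Counts were fitted in edgeR 4.0.16 (R 4.3.3), with 1 quasi-likelihood model of the 4 groups, filterByExpr and TMM factors, 7 contrasts and Benjamini-Hochberg adjustment over 14405 genes. Age and training contrasts share libraries, so their results are not independent. SE is the log2 difference divided by the root of F. CPM uses TMM-scaled library sizes, and scores are mean log2 CPM with a prior count of 2. The fit was tested on simulated data. Alternatives were DESeq2 1.42.0, other scaling factors, no filter, fits on the compared groups alone, 2 scores as covariates, each library left out, an FDR of 0.01 and a promoter distance of 500 bp. Genes were named by rule: members past an adjusted p, the smallest p of each family and comparison, a list of 27 well studied members (1 of them is not reported here), and promoter peaks past FDR 0.05 or at the extremes. Members and lists were chosen with earlier results of these data known. Input libraries were not analysed here. Libraries held 9410843 to 13350561 counts, and a gene near 1 CPM rests on few reads.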

Additional observations from a re-analysis of the deposited data

How the results depend on the processing

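Over the alternatives run, 142 counts of members or member peaks called stayed equal or close to the main count, nearly all of them 0 in both. Of the others 5 rose, all for age over both conditions, and 2 fell, the H2A.Z training counts at an FDR under 0.01. For single genes and medians, 1881 kept direction and side of the threshold or, for medians, stayed near the main value. Another 12 came to pass, 2 moved and 1 turned. The count of members passing an adjusted p of 0.05 for age over both conditions, 0 in edgeR, became 3 with DESeq2 (Tet1, Dnmt3a, Kdm5a), 1 with no filter on low counts (Tet1) and 3 with the choroid plexus score as a covariate (Tet1, Dnmt3a, Sirt4). Leaving out 1 library at a time gave 0 to 4, with 4 without young naive library 81 (Chd2, Dnmt3a, Sirt4, Tet1) and 1 without old conditioned library 65 (Kdm5a). Over these settings the adjusted p of Tet1 ran from 0.0309 to 0.246, of Dnmt3a from 0.0338 to 0.273, of Sirt4 from 0.0248 to 0.262 and of Kdm5a from 0.0368 to 0.267 (edgeR or DESeq2). Old conditioned library 61 and young naive library 79 left out together, chosen after seeing the data, gave 9 members lower at an unadjusted p under 0.05 in place of 13. Age over both conditions called 21 genes higher and 33 lower in all, against 107 and 121 with DESeq2, 67 and 125 with no filter, 50 and 199 with the choroid plexus score, and 13 and 20 with the nuclear RNA score. Leaving out 1 library moved these between 9 and 132 higher and between 3 and 259 lower, both highest without young naive library 81. Genes called in all went from 4 to between 0 and 16 for training in young mice, from 2 to between 0 and 9 in old mice, from 11 to between 7 and 30 over both ages, from 8 to between 1 and 39 for age in naive and from 5 to between 2 and 97 in conditioned mice, and from 0 to 1 for the interaction, where DESeq2 gave 7, 9, 19, 39, 97 and 1. In these 6 comparisons 0 members were called under any setting run. At an FDR under 0.01, 2 member peaks were lower in young and 3 in old mice in place of 8 and 13. Dnmt3a in old mice after training, -0.05 log2, ran from -0.10 to 0.029 with 1 library left out, turning above 0 without old naive library 71. The member median of training in old mice moved to -0.05 with the choroid plexus score and that of age in naive mice to -0.01 with the nuclear RNA score. The cause of these shifts was not tested. In young mice the 1 higher member, Hdac2, was no longer under an unadjusted p of 0.05 with upper-quartile factors, with the choroid plexus score, or without library 73, 75, 81 or 83. No paired analysis was possible because the numbers in the labels of the RNA libraries differ between all 12 and the H2A.Z table holds no value per library. Depth limits Dnmt3b and Dnmt3l, whose counts are too few for a small difference to be detectable.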
